A study of Homo sapiens with 6 samples.

Results

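Replication-dependent histone genes are the genes that make the bulk of the H1, H2A, H2B, H3 and H4 proteins of new chromatin. They were taken from the deposited table as the protein-coding genes whose symbols name a clustered H1 (H1-1 to H1-6), H2A (H2AC), H2B (H2BC), H3 (H3C) or H4 (H4C) gene. The rule gave 69 of 62754 genes: 6 H1, 17 H2A, 18 H2B, 13 H3 and 15 H4 genes. It used symbols only and no measured value.

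The cells were HPNE-hTERT, a non-malignant line from human pancreatic duct that is immortalized with telomerase, so both groups carry the telomerase transgene and all values describe 1 line. Cells of the treated group received FOLFIRINOX, a chemotherapy mixture given for 4 days and made here of SN-38 (25 nM) with 5-fluorouracil (10 µM) and oxaliplatin (5 µM), a treatment that the labels describe as inducing senescence. The vehicle group received DMSO. Each group had 3 libraries of polyadenylated RNA, marked P14, P15 and P19 in both groups, and nothing in the labels says that they came from separate cultures, so a p-value here reflects library-to-library spread, which may be technical.

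Histone mRNAs of this family are unusual among the mRNAs of animal cells: they normally end without a poly(A) tail, just after a short stem-loop that the protein SLBP binds and that is cut with the help of the U7 small nuclear RNA. Their genes are switched on at the start of S phase through the coactivator NPAT, and their mRNAs are destroyed when DNA synthesis stops. Longer histone RNAs that pass the stem-loop and end at an ordinary poly(A) site are also known, in particular in cells that have left the cell cycle. Libraries made from polyadenylated RNA, as here, therefore read mainly tailed histone RNA, and how far the untailed form was kept out was not tested.

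The stem-loop is shown because it marks where a normal histone mRNA ends, and so which annotated RNAs run past it. GENCODE 29 (GRCh38) held 65 of the 69 genes, and its transcripts of 29 of these contained the pattern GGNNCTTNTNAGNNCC (RNA strand only). Some GENCODE 29 models without a match end short of the RefSeq gene, and the part beyond them was not searched. Capitals mark the 16 bases of the stem-loop, and up to 14 flanking bases are in lower case, 5′ to 3′ on the RNA strand with T for U.
H2AC6: ccaaaGGCTCTTTTCAGAGCCcccctaccg
H2AC11: ccaacGGCTCTTTTCAGGGCCacccacgtc
H2BC5: ccaaaGGCTCTTTTAAGAGCCacgcatgtt
H2BC21: ccaaaGGCTCTTTTCAGAGCCacccaccta
H3C6: ccaaaGGCTCTTCTCAGAGCCaaccacttt
H4C8: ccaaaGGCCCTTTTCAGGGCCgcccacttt
H4C14: ccaaaGGCCCTTTTTAGGGCCgaccacttg
The most common form, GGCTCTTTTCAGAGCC, was found in 15 genes of the H2A, H2B and H3 classes, H2AC6 among them. The form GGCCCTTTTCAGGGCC was found in 5 H4 genes, H4C8 among them, and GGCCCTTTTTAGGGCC in 3, H4C14 among them. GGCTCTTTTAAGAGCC was found in 4 genes including H2BC5, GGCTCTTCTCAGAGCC in H3C6 alone and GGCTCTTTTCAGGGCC in H2AC11 alone. In the longest annotated transcript with the pattern, 1655 bases followed the stem-loop in H4C8, 1128 in H2AC6, 1729 in H2BC21 and 1862 in H3C6. The H2BC5 transcript with the stem-loop ended 39 bases after it, while the whole H2BC5 gene model spanned 13204 bases because another transcript joins a distant exon.

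Upstream sequence is shown for 4 genes called higher, which stand for the H1, H2A, H2B and H4 classes, as the 250 bases before the RefSeq start (GRCh38.p14), 5′ to 3′ on the strand of the gene. Capitals mark matches on either strand to 3 motifs known from histone promoters, the TATA box motif TATAAA, the CCAAT box and the octamer motif ATTTGCAT.
H2AC6: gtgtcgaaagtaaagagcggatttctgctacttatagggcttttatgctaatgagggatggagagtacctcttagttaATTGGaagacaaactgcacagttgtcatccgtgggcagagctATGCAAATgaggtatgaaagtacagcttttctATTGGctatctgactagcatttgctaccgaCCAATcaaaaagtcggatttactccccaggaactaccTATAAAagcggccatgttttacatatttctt
H2BC21: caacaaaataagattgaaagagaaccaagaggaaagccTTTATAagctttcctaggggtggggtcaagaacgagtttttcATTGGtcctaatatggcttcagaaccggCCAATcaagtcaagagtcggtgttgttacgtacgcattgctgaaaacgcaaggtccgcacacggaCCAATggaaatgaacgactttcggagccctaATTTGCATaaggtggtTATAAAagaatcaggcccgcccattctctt
H1-2: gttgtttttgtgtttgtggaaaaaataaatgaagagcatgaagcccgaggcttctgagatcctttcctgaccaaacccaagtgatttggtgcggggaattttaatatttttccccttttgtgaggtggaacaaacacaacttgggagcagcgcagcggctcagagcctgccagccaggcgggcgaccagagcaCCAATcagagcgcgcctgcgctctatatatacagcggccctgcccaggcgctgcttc
H4C8: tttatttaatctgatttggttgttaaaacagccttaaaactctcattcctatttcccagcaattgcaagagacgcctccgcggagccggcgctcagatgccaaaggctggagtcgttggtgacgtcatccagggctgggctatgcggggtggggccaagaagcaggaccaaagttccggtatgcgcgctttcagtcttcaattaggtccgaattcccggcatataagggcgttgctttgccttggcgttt
These windows lie at chr6:26123922-26124171 (plus strand), chr1:149886683-149886932 (minus), chr6:26056471-26056720 (minus) and chr6:26285535-26285784 (minus). The H2AC6 window is also the upstream region of H2BC4, whose start faces the other way 246 bases off. TATAAA was found in 67.2% of the 64 histone windows on hand and in 13.0% of the windows of 27305 genes of the table. CCAAT was found in 84.4% against 37.0% of these genes, and in each such gene of the H1, H2A, H2B and H3 classes but in 23.1% of H4 genes. The octamer was found in 40.6% against 2.03%, with 68.8% of H2A, 77.8% of H2B, 9.09% of H3 and no H1 or H4 genes holding it. H4C8 held none of the 3 motifs in this window. Windows of genes that start close together in opposite directions overlap. Because both strands were searched, the same site can count for both genes, as the octamer does for H2AC6 and H2BC4. The windows are therefore not all independent. A match is a description of letters and not a measured binding site.

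Libraries held 83981154 to 97762802 reads, and their values were scaled to library size by the authors. Mitochondrial ribosomal RNA made up 2.74%, 1.18% and 1.23% of reads in the treated libraries (P14, P15, P19) and 0.864%, 0.563% and 0.552% in the vehicle libraries. Of the duct markers, KRT19, EPCAM and CFTR did not pass the level filter, with values of at most 17.7 in any library, while KRT18, KRT8 and SOX9 did. The mesenchymal markers VIM, FN1 and COL1A1 had values of at least 192909.8 in each library, so the labelled duct identity rests on part of its markers. No acinar or endocrine marker passed. Of 3 immune and 3 endothelial markers 1 each passed, CD68 and VWF, and the immune markers summed to 12.3 to 53.2 in treated and 6.37 to 13.1 in vehicle libraries, where PTPRC was at 0; their part in the histone values was not tested.

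The summed value of each class was higher after FOLFIRINOX. Summed over all 69 genes, whatever their level, the value came to 50618, 42691 and 36309 in the treated libraries (P14, P15 and P19) and 7287, 4815 and 4329 in the vehicle libraries. That is 43206 ± 7168 (SD, n = 3) against 5477 ± 1586, a ratio of 7.89, and the ratios within P14, P15 and P19 were 6.95, 8.87 and 8.39. As a share of reads, histone genes took 569, 517 and 423 of every 1000000 reads after FOLFIRINOX and 77.0, 52.5 and 47.4 with vehicle. Whole-family sums are given without a test, since members were chosen with results of these data known. In bulk RNA, more cells with a transcript and more transcript per cell cannot be told apart.

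Few genes carried this sum. Of the 69, 8 had no read in any library (H2AC1, H2BC1, H2BC14, H3C4, H3C14, H3C15, H4C2 and H4C7), 38 had reads but stayed under the filter, a value of at least 10 in no fewer than 3 libraries, and 23 passed it. Among the 23, 16 were called higher by limma at an adjusted p under 0.05, 0 were called lower and 7 were not called. Of all 17951 genes tested, 11.4% were called higher and 12.2% lower. The median log2 difference of the 23 was 1.90, against 0.02 for all genes tested, though a gene that passed only through its FOLFIRINOX libraries had to differ. In 18 of the 23, H4C15 with its groups apart by the filter itself among them, every FOLFIRINOX library lay above every vehicle library, as in 19.9% of all genes tested, and in 19 the FOLFIRINOX library was the higher within each of P14, P15 and P19.

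**Figure D1:**
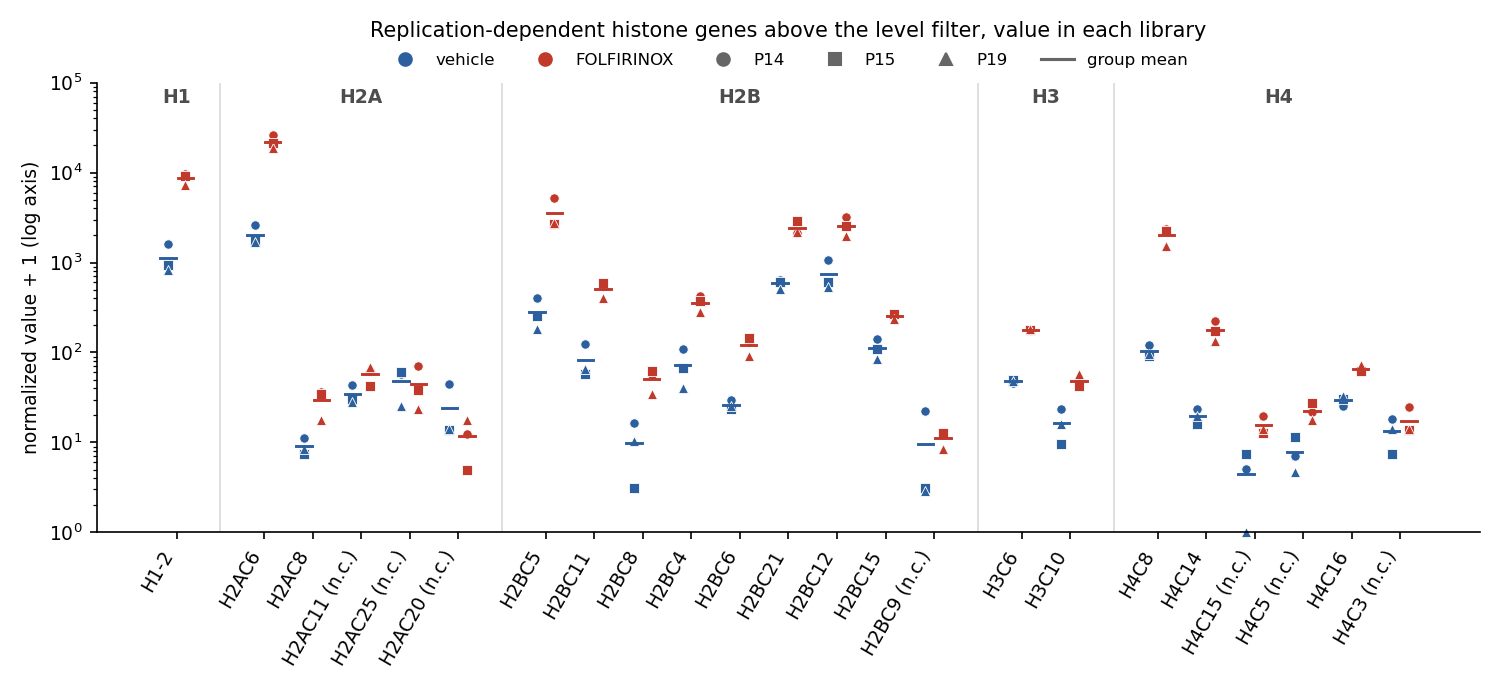
Normalized value plus 1 (log axis) of the 23 histone genes that passed the level filter, by class; blue is vehicle, red is FOLFIRINOX, symbols give the P number and bars the mean of 3 libraries, and n.c. marks genes not called. The groups are apart in 18 of the 23 genes, H4C8 and H2BC5 among them, and overlap in H2AC11, H2AC20, H2AC25, H2BC9 and H4C3.

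Among linker histones, which bind the DNA between nucleosomes, H1-2 stood for nearly the whole class. It read 9539, 9147 and 7201 in treated libraries (P14, P15, P19) and 1612, 932 and 824 in the vehicle libraries. Each treated library was far above each vehicle library, and within each group P14 was the highest. The log2 difference was 2.99 ± 0.24 (SE), a 7.97-fold rise (limma, adjusted p = 8.51e-06). H1-2 made up 99.9% of the H1 sum after FOLFIRINOX and 99.7% with vehicle, so the H1 sum of 8638 ± 1250 (SD, n = 3) against 1126 ± 424 is close to its own value. The other 5 H1 genes did not pass the filter and together had 8, 8 and 13 reads in the treated and 0, 2 and 8 reads in the vehicle libraries. Unlike most genes that rose, H1-2 has a short gene model of 731 bases in RefSeq, and its GENCODE 29 model of 642 bases (chr6:26055787-26056428) held no stem-loop match. The RefSeq model (chr6:26055740-26056470) runs further at both ends, and that part was not searched. A missing match is therefore no sign that H1-2 lacks a stem-loop.

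H2A forms a dimer with H2B on the outside of the nucleosome, and its class was led by H2AC6 (chr6:26124145-26139116, plus strand). H2AC6 read 25888, 21069.5 and 18967 in the FOLFIRINOX libraries and 2619.5, 1769.8 and 1689 in the vehicle libraries, in the order P14, P15, P19. The groups were apart by several times the spread within either, with a log2 difference of 3.46 ± 0.20 (SE), a 10.97-fold rise (limma, adjusted p = 6.18e-07). This gene made up 99.3% of the H2A sum after FOLFIRINOX and 93.7% with vehicle, and 50.9% against 37.0% of the reads of the whole family. H2AC8 was the only other H2A gene called, at 28.4 ± 10.1 against 8.03 ± 2.00 (SD, n = 3), a log2 difference of 1.66 ± 0.49 (limma, adjusted p = 0.0313). That call was lost in 6 of 16 alternatives, with adjusted p from 0.0123 to 0.124 over all of them, and without FOLFIRINOX P14 or P15 or vehicle P15 or P19 it was between 0.0535 and 0.112.

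The remaining 3 H2A genes that passed were not called. H2AC11 had values of 61.7, 41.3 and 68.2 after FOLFIRINOX and 43.0, 29.7 and 27.1 with vehicle, so the groups overlapped (log2 difference 0.76, limma, adjusted p = 0.141). H2AC25, a gene of the small chromosome 1 cluster at 1q42, stood at 43.2 ± 24.3 against 47.0 ± 19.7 (adjusted p = 0.838), and H2AC20 at 10.7 ± 6.46 against 23.3 ± 17.98 (adjusted p = 0.2995; limma for both). Without the 2 called genes, the 15 other H2A genes summed to 134.7 ± 16.002 after FOLFIRINOX and 127 ± 41.2 with vehicle.

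In the H2B class, 9 of 18 genes passed and 8 of the 9 were called higher. H2BC5 read 5176, 2659 and 2764 after FOLFIRINOX and 397, 254 and 182 with vehicle, a log2 difference of 3.67 ± 0.32 (limma, adjusted p = 1.26e-05). The treated P14 library was well above the other treated ones, and all 3 lay above the vehicle libraries. H2BC21 (chr1:149884459-149886652, minus strand), in the 1q21 cluster, read 2154, 2861 and 2171 against 641, 604 and 506. Here P14 was not the highest treated library, and the log2 difference was 2.03 ± 0.19 (adjusted p = 1.97e-05). For H2BC12 the values were 3245, 2541 and 1946 against 1060.3, 613 and 537. Its log2 difference was 1.84 ± 0.27 (adjusted p = 0.000706), and the groups did not overlap.

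Lower in level, 5 further H2B genes rose as well. H2BC11 read 541, 584 and 399.7 after FOLFIRINOX and 122, 56.2 and 64.5 with vehicle (a 6.51-fold rise, limma, adjusted p = 9.86e-05). H2BC4 read 419, 368 and 282 against 109, 65.8 and 39.3 (log2 difference 2.41 ± 0.34, SE, adjusted p = 0.000573). H2BC15 read 266, 264 and 233 against 140.4, 109 and 84.1 (1.21 ± 0.24, adjusted p = 0.00473). In all of these the vehicle P14 library was the highest of its group, and the groups did not overlap. H2BC6 read 131, 143 and 90.6 against 28.7, 22.3 and 24.3 (2.21 ± 0.31, adjusted p = 0.000473). H2BC8 read 54.5, 62.0 and 33.6 against 15.4, 2.12 and 9.35 (2.61 ± 0.61, adjusted p = 0.0103), from 152 and 27 reads in all. H2BC9 was not called, with 10.2 ± 2.37 against 8.50 ± 11.3 and its highest value in the vehicle P14 library.

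H2B was the one class with its reads spread over many genes. Its largest member, H2BC5, held 35.9% of the class sum after FOLFIRINOX and 14.5% with vehicle. Within the whole family, H2BC5 went from 5.07% to 8.18% of reads and H4C8 from 1.86% to 4.73%, while H2BC12 went from 13.5% to 5.97% and H2BC21 from 10.7% to 5.54%. H1-2 held 20.5% and 20.0%. These are shares of reads, not divided by transcript length, so they do not rank the genes by number of molecules. The H2B sum was 9833 ± 2052 after FOLFIRINOX and 1920 ± 569 with vehicle, a ratio of 5.12.

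Histone H3, which with H4 forms the core of the nucleosome, was the lowest class in reads. H3C6 read 179, 175 and 179 after FOLFIRINOX and 45.1, 48.8 and 46.7 with vehicle. The libraries of a group were close together, with SDs of 2.37 and 1.87, and the log2 difference was 1.90 ± 0.24 (limma, adjusted p = 0.000222). H3C10 was called as well, at 47.5 ± 7.62 against 15.3 ± 7.03 (SD, n = 3), with a log2 difference of 1.66 ± 0.43 (adjusted p = 0.0172). That call did not hold when FOLFIRINOX P19 (adjusted p = 0.0699) or vehicle P15 (0.0517) was left out, within a range of 0.00186 to 0.0699 over 16 alternatives. The other 11 H3 genes all stayed under the filter, and together they had 4, 6 and 5 reads in the FOLFIRINOX libraries and 29, 18 and 13 in the vehicle libraries. These few reads lay lower in each treated library than in any vehicle library, the opposite order to H3C6 and H3C10, and this was not tested. The H3 sum had the smallest ratio of the 5 classes, 230.2 ± 9.01 against 82.5 ± 12.9, a ratio of 2.79.

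Nearly all H4 genes encode the same protein, and their class had the largest ratio of sums, 2367 ± 510.1 against 187 ± 28.0, or 12.6. H4C8 (chr6:26277609-26285638, minus strand) read 2363, 2243 and 1521 after FOLFIRINOX and 119, 91.2 and 96.3 with vehicle. Among the 23 genes that passed the filter it had the largest difference, 4.29 ± 0.22 on the log2 scale, or 19.6-fold (limma, adjusted p = 2.31e-07), and held 86.3% of the H4 sum after FOLFIRINOX against 54.5% with vehicle. H4C14 read 224, 171 and 133 against 22.5, 14.9 and 18.7 (log2 difference 3.15 ± 0.32, adjusted p = 4.24e-05). H4C16, the lone histone gene of chromosome 12 in the family, read 62.8, 61.0 and 71.9 against 24.6, 29.7 and 31.8 (1.16 ± 0.31, adjusted p = 0.019). In these 3 genes no treated library overlapped the vehicle group. The call of H4C16 was lost in 4 of 17 alternatives, among them without FOLFIRINOX P19 (adjusted p = 0.0891) and without vehicle P14 (0.0521), over a range of 0.00543 to 0.0914.

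Of 2 further H4 genes the groups were apart, but neither passed the test. H4C15 reached the filter only through its FOLFIRINOX libraries, so its groups had to be apart. H4C5 stood at 21.3 ± 4.91 against 6.83 ± 3.49 (SD, n = 3; log2 difference 1.58 ± 0.53, limma, adjusted p = 0.0539), and H4C15 at 14.5 ± 3.57 against 3.49 ± 3.23 (2.18 ± 0.81, adjusted p = 0.0763). With P number as a block both were called (adjusted p = 0.0288 and 0.0282), which made 18 histone genes higher beside 22.3% of all genes tested, and raised the H4 count from 3 to 5. Over 16 alternatives the adjusted p ran from 0.0249 to 0.18 for H4C5 and from 0.0282 to 0.213 for H4C15. H4C3 was not called, at 16.5 ± 6.20 against 12.3 ± 5.57.

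**Figure D2:**
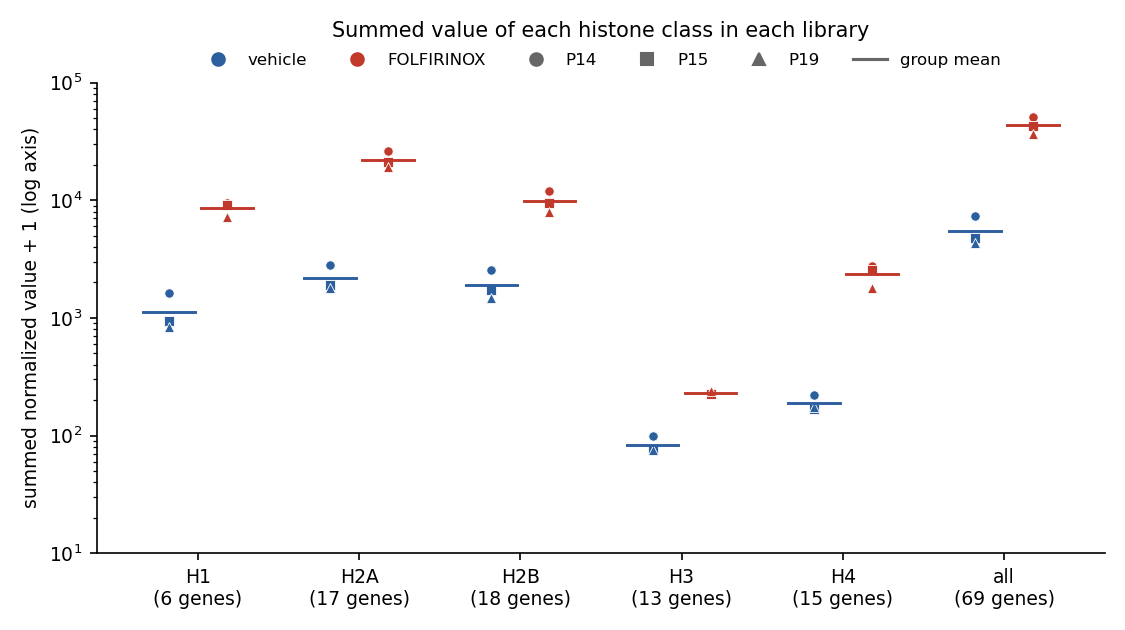
Summed normalized value plus 1 (log axis) of every gene of each class in each of the 6 libraries; blue is vehicle, red is FOLFIRINOX, symbols give the P number and bars the group mean. Each class sum is higher in every FOLFIRINOX library, with ratios of means from 2.79 for H3 to 12.6 for H4.

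Outside the 16 genes that rose, the other 53 together summed to 269 ± 26.2 after FOLFIRINOX and 213 ± 75.1 (SD, n = 3) with vehicle, a difference smaller than the vehicle SD. The 46 genes that did not pass had 76, 124 and 91 reads in the treated and 101, 57 and 75 reads in the vehicle libraries, of at least 83981154 in each library. Their highest value in any library was 19.7, for H4C12, which had 31 reads after FOLFIRINOX and none with vehicle. In the authors' deposited table H4C12 has a log2 fold change of 5.79 (adjusted p 0.00667), a fitted value that is no bound. At this depth a difference was not detectable in most of these genes.

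Many of the genes that passed the level filter have an annotated RNA longer than the classical one, whether called or not. Taking the longer of the GENCODE 29 and RefSeq gene models, 27 genes spanned more than 1000 bases and 42 did not, a limit set after the values had been seen. Of the 27, 18 passed the filter and 14 were called higher. Of the 42 short ones, 5 passed and 2, H1-2 and H2AC8, were called. Among the 7 genes that passed and were not called, H2AC11, H2BC9, H4C5 and H4C15 had a long model too. By class, 12 of 18 H2B genes but 2 of 17 H2A genes had a long model, and the long H2A genes were H2AC6 and H2AC11. Of the 16 called genes, 11 had a GENCODE 29 transcript that ran more than 100 bases past a stem-loop and 10 had the poly(A) signal AATAAA in the last 40 bases of a transcript, against 7 and 5 of the 42 that did not pass and are in GENCODE 29. Of the 7 that passed and were not called, 5 and 4 had them, shares close to those of the called genes. A stem-loop match itself was present in 13 of the 16, 5 of the 7 and 11 of the 42. A model that stops before the stem-loop cannot run past it, so these counts depend on where the annotated models end. The model length is an annotation and not a measurement in these cells, and the values here cover whole genes and do not show which form was read.

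**Figure D3:**
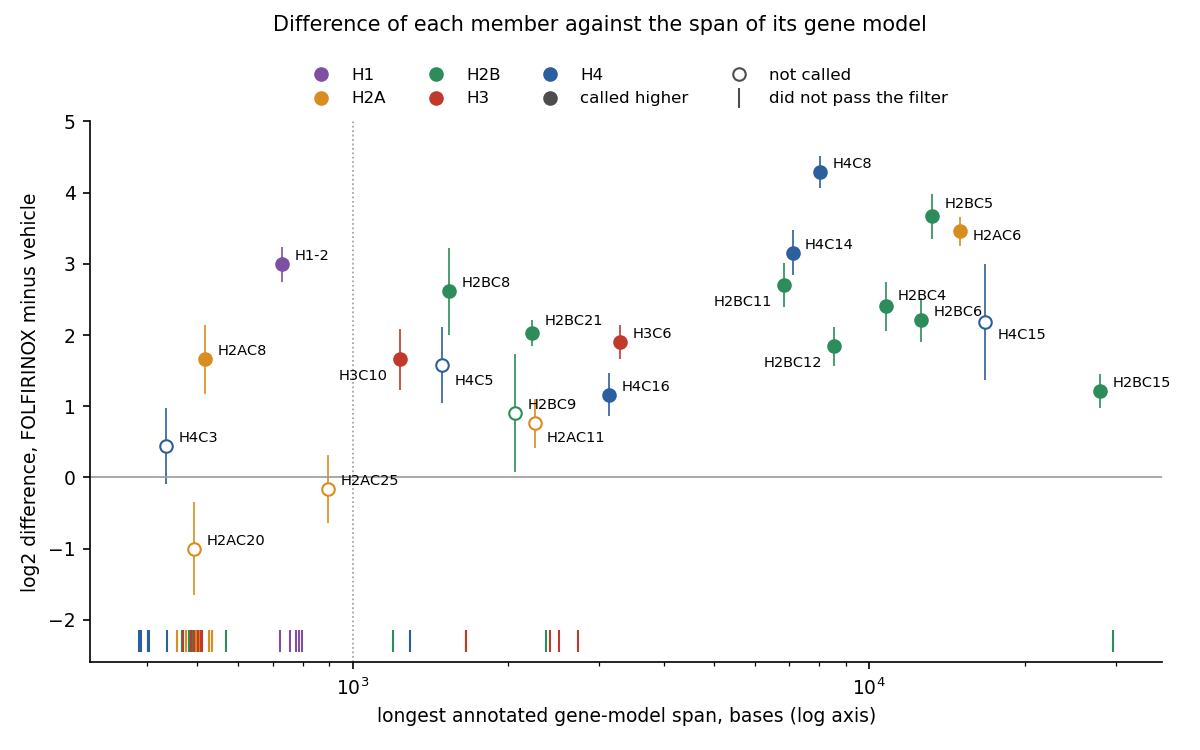
Log2 difference (FOLFIRINOX minus vehicle, with SE) of each histone gene that passed the filter against the longest annotated span of its gene model in bases (log axis), coloured by class, filled where called higher; ticks at the bottom are genes that did not pass, and the dotted line is at 1000 bases. Of the 16 called genes, 14 lie right of the line, and H1-2 and H2AC8 lie left of it; of the 7 not called, 4 lie right of it.

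Many H2A and H2B genes stand in pairs that start close together and run in opposite directions. With RefSeq starts at most 500 bases apart, 12 such pairs were found among the genes in GENCODE 29. Both partners were called higher in 2 pairs, H2BC4 with H2AC6 and H2BC8 with H2AC8, a single partner in 4 and neither in 6. In the 4 mixed pairs the called partner was the H2B gene each time, and each has a long gene model. H2AC11, the partner of H2BC11 that was not called, has a long model too (2250 bases). H2BC12 rose as given above, while H2AC12, which starts 248 bases away, had no read after FOLFIRINOX and 10 with vehicle. H2BC21 rose while H2AC20, 236 bases away across the region printed above, had 33 reads after FOLFIRINOX and 69 with vehicle. The log2 ratio of H2BC21 to H2AC20 was 6.93 to 9.18 in treated and 3.83 to 5.46 in vehicle libraries, with no overlap. For H2BC11 and H2AC11 that ratio was 2.53 to 3.79 against 0.90 to 1.48, and for H2BC15 and H2AC15 it was 3.90 to 5.94 against 2.80 to 4.31, with overlap in the last. These pairs were picked by their calls, so the difference between partners is given as values and was not tested.

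**Figure D4:**
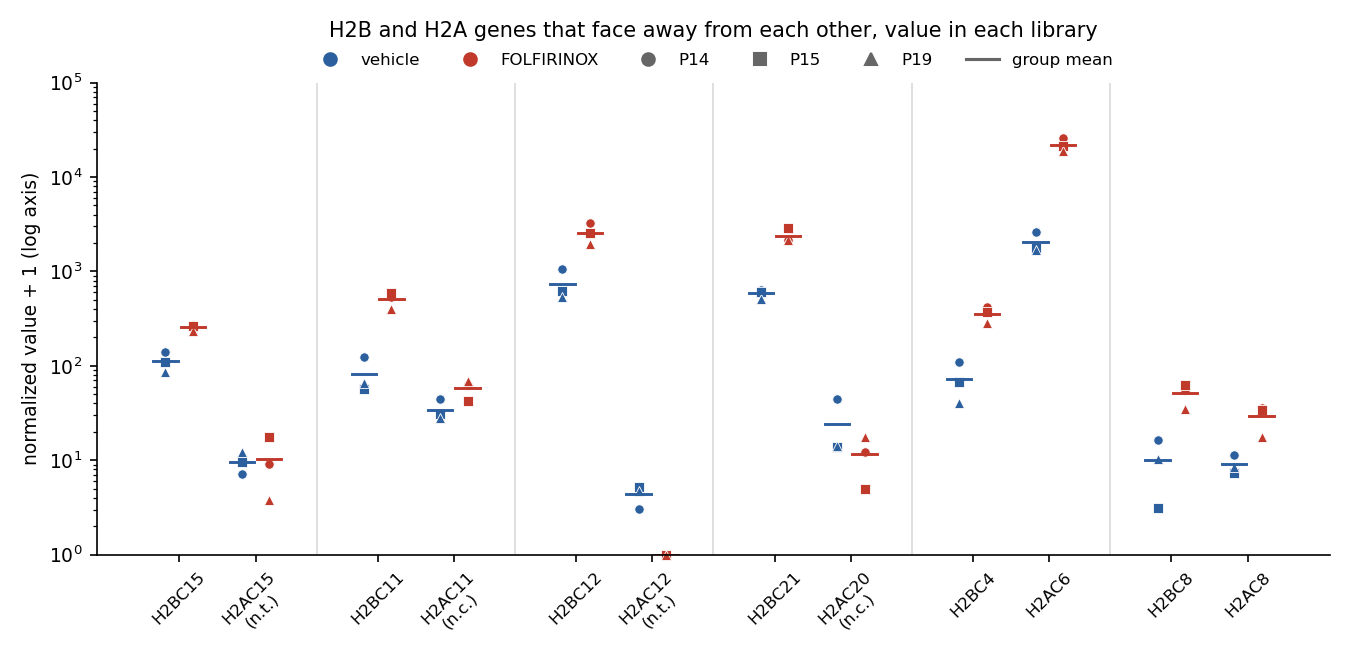
Normalized value plus 1 (log axis) of both partners of the 6 H2B and H2A pairs with a called gene, in each library; blue is vehicle, red is FOLFIRINOX, n.c. marks a gene not called and n.t. one that did not pass the filter. H2BC12 is higher while its partner H2AC12 lies near the floor, with no read after FOLFIRINOX and 10 with vehicle. In H2BC4 with H2AC6 both are higher.

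By position, 53 of the 65 genes with a GENCODE 29 model lie in the cluster at 6p22 (chr6:25726132-27893843), where 17 passed and 13 were called higher. In the same interval 20 other genes were tested, of which 4 were higher and 4 lower, with a median log2 difference of 0.13. Over all genes tested the shares were 11.4% higher and 12.2% lower. In the 1q21 cluster (chr1:149782689-149887916), 4 of 9 such genes passed and H2BC21 and H4C14 were called. The only other gene tested there, an antisense RNA without a symbol, was called higher (log2 difference 4.85), and it passed the filter only through its FOLFIRINOX libraries. RefSeq places H3C2 and H3C3 in the 6p22 interval and H2AC18 and H2AC19 in that of 1q21, and none of these 4 passed. At 1q42, 1 of 2 passed and none was called.

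Sequence shared between copies limits some of these counts. In 13 genes more than 50% of 50-base windows of the transcripts also occur in another gene, and among them are H2BC12 (74.1%), H4C14 (97.5%) and H4C15 (97.2%), so the split of reads between H4C14 and H4C15 is uncertain. H3C4, H3C14 and H3C15, all without a read, share 100% of their windows. Of the 16 called genes, 14 share under 10%. The exons of H4C14 and H4C15 also overlap those of H3C14 and H3C15 on the other strand, and those of H2BC15 overlap H2AC15 (other strand) and H2AC16 (same strand). The strand setting is not known here, so such reads cannot be told apart.

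Genes that regulate histone RNA were set beside the family. None of 11 genes for transcription of histone genes was called higher and 4 were lower, with a median log2 difference of -0.01. Among all genes tested, 11.4% were called higher and 12.2% lower. NPAT, the coactivator of the family, stood at 2010 ± 697 after FOLFIRINOX and 2013 ± 612 with vehicle (limma, adjusted p = 0.975). CASP8AP2, a partner of NPAT at histone loci, had a log2 difference of -0.45 ± 0.28 (adjusted p = 0.285, and 0.00855 with the P number block, the lowest of a range up to 0.735). The cyclin CCNE2, which with CDK2 activates NPAT, fell by 5.40 ± 0.34 on the log2 scale (adjusted p = 1.23e-06) and CDK2 fell by 1.69 ± 0.15 (1.39e-05).

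Of 21 genes for 3′ end processing and turnover of histone RNA, none was called higher and 2 were lower, with a median of -0.12. These counts stand beside 11.4% higher and 12.2% lower among all genes tested. LSM11, a protein of the U7 particle, fell by 0.79 ± 0.18 on the log2 scale (limma, adjusted p = 0.00858). SLBP stood at 4154 ± 424 against 5775 ± 461 (SD, n = 3), a log2 difference of -0.48 ± 0.16 (adjusted p = 0.0477). This call did not survive leaving out any of the 6 libraries, with adjusted p from 0.0707 to 0.165. The call held with the P number block (limma, adjusted p = 0.00115). Of 9 genes for the cap-binding complex, ARS2, NELF and CDK9, whose loss is known to give tailed histone RNA, none was called higher and the NELF subunits NELFB and NELFCD were lower. Their log2 differences were -0.72 ± 0.19 (adjusted p = 0.0192) and -0.54 ± 0.15 (0.0239), and both calls were lost without FOLFIRINOX P14 or P19 or vehicle P14 or P15, that of NELFCD also without FOLFIRINOX P15 (adjusted p 0.0509 to 0.12). With the P number block, NELFB and NELFCD were lower at adjusted p of 8.57e-05 and 0.000363 (limma). Of the transcription genes 1 was then higher and 5 lower, and of the processing genes 2 and 6. For the last list these counts were 0 and 4. Over all 17951 genes tested, 3995 were higher and 3918 lower with the block.

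Histone variants outside the family were measured too. Many such variants, H3.3 among them, are made through the whole cell cycle from ordinary tailed mRNAs. This does not hold for every variant listed, CENPA and H2AX included. Of 12 that passed, 1 was higher, 4 were lower and the median was -0.03, beside 11.4% higher and 12.2% lower among all genes tested. The H3.3 genes H3-3A and H3-3B were not called (log2 differences 0.02 and -0.25), and the sign of the H3-3A value turned with TMM scaling. CENPA, the H3 variant of centromeres, fell by 6.97 ± 0.28 (adjusted p = 3.67e-08) and H2AX, the variant phosphorylated at DNA breaks, fell by 2.41 ± 0.18 (4.60e-06).

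DNA replication genes, which in cycling cells are on in the same phase as the histone genes, were lower in 31 of 32 cases, with a median log2 difference of -2.55. Among all genes tested, 12.2% were called lower. RRM2 of ribonucleotide reductase fell by 6.91 ± 0.19 (limma, adjusted p = 3.45e-09) and ASF1B, a chaperone for H3 and H4, fell by 8.40 ± 0.34 (4.10e-08). PCNA, the sliding clamp, was the 1 gene called higher (1.04 ± 0.16, adjusted p = 0.00113). The proliferation marker MKI67 fell by 8.78 ± 0.24 (3.45e-09).

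**Figure D5:**
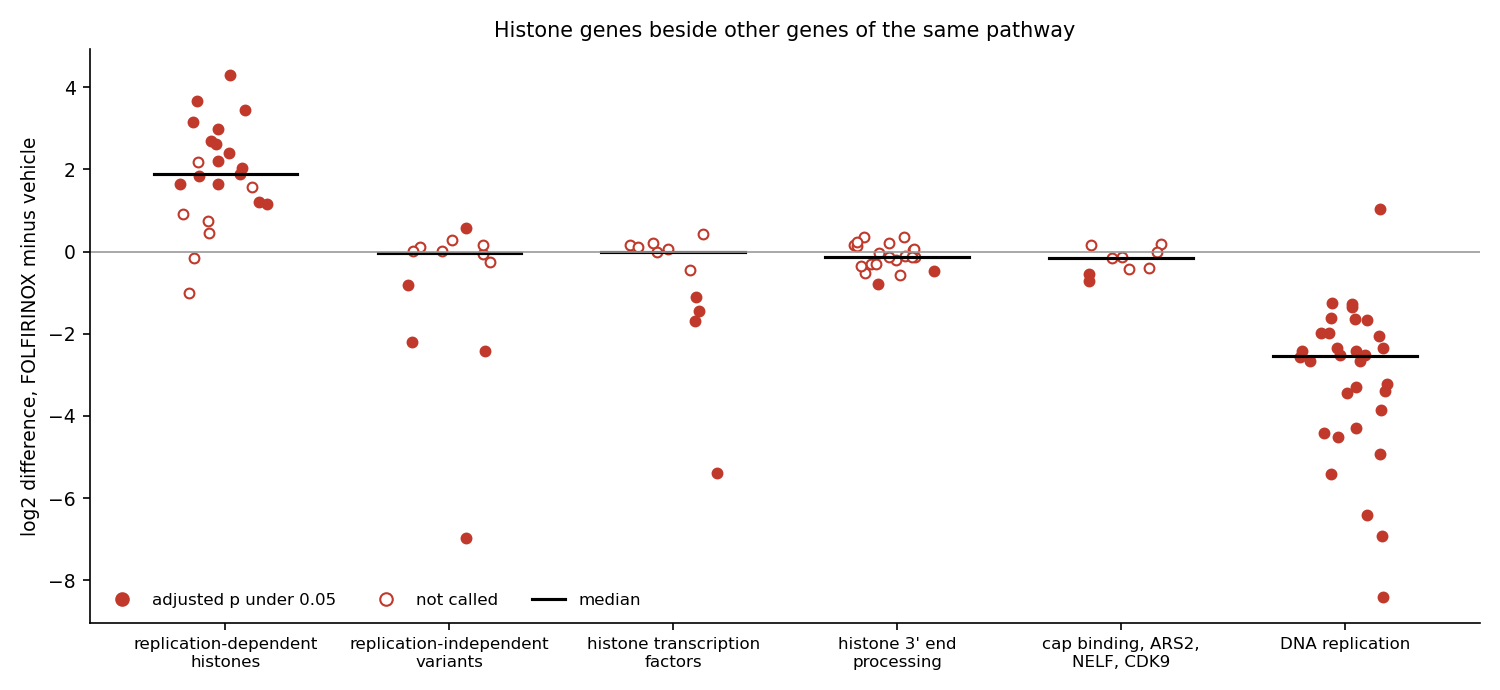
Log2 difference (FOLFIRINOX minus vehicle) of each gene that passed the filter in 6 groups of genes; filled points were called, open points were not, bars are medians. The histone genes have a median of 1.90 and the DNA replication genes of -2.55, while the other 4 groups have medians between -0.17 and -0.01.

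RNAs known to carry no poly(A) tail or a short one were set beside the histones. How reads from multicopy genes were counted is not known, so these values cannot show how much untailed histone RNA was kept. Of 23 in the table, 10 were listed at 0 and 4 passed. The mitochondrial ribosomal RNAs MT-RNR1 and MT-RNR2 were called higher, with log2 differences of 1.08 ± 0.30 (limma, adjusted p = 0.0253) and 1.19 ± 0.33 (0.0228). Both calls were lost without vehicle P15 (0.0685 and 0.0635) or P19 (0.0561 and 0.0513), and that of MT-RNR1 also without FOLFIRINOX P14 (0.0501). Both held with the P number block (limma, adjusted p = 1.19e-09 and 5.12e-10). The other 21, nuclear-encoded RNAs such as RN7SL1 and the spliceosomal RNAs, summed to 146 to 183 in the FOLFIRINOX and 148 to 315 in the vehicle libraries, with none called. Without both P14 libraries, the ones with the highest mitochondrial ribosomal share in each group, 14 histone genes were called higher, among 1162 of all genes. That share still differed between the groups, at 1.18% and 1.23% in treated against 0.563% and 0.552% in vehicle libraries. This setting therefore cannot separate the share from the treatment. The part of the mitochondrial RNA share in the histone values was not tested.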

How the data were processed

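The data are RNA-seq of poly(A)-selected RNA from HPNE-hTERT cells, in 3 FOLFIRINOX and 3 vehicle libraries. Per the submitters' processing notes, the authors aligned to GRCh38 with STAR 2.7.11b and counted with featureCounts 2.0.6, beside FastQC 0.12.1 and DESeq2. The sources used here do not give the annotation release or strand setting. Per the file headers, the deposited table holds a library-size-normalized signal per gene and library, the authors' log2 fold changes with errors, a test score and p-values. In the authors' deposited table, 17 histone genes had an adjusted p under 0.05 with a higher value and 0 with a lower one, of 37 with an adjusted p. The share of all genes under that limit in the authors' comparison was not counted here, so these numbers have no background beside them.

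Dividing by the value of 1 read gave whole numbers for 100% of values (tolerance 0.001), so read counts were recovered from the deposited signal: 83981154 to 97762802 per library. Between 72.3% and 74.8% of counts below 50 were even.

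The test was limma 3.58.1 on log2(value + 1) with the trend option, over 17951 genes that reached 10 in 3 libraries or more, with Benjamini-Hochberg adjustment over all of them at 0.05. Fold changes are on the log2(value + 1) scale, which understates those of low genes. An exact permutation test of 3 against 3 libraries cannot give a p under 0.1. Replicates differed by more than sampling noise (chi-square per degree of freedom 76.0 to 231).

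Members and lists were chosen with earlier results of these data known. Each member above the filter is named, with library values for means of 50 or more; of each other list, the largest called genes and a few fixed genes. A histone variant and a duct marker that this rule or the marker list covers are counted but not reported here. The P numbers stand only in the column names, and columns were therefore matched to groups, not to numbered samples. Deviations from group means correlated at 0.257, 0.282 and 0.288 between libraries of the same P number and at -0.263 to -0.0272 between others. Such deviations sum to 0 within a group, so part of this contrast in sign is built in. The numbers were read as pairs only for the values within P14, P15 and P19 and for the block. The main test had no block, since the labels give no such design, and its calls ignore any pairing.

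As alternatives, the pseudocount was 0.5 or 8, the filter was dropped or set at 50, and scaling was by TMM or to a common total; further ones were limma without trend, edgeR 4.0.16 and DESeq2 1.42.0 on the recovered counts, the P number block, and leaving out each library or both P14 libraries. Gene models came from GENCODE 29 and RefSeq tables, matched by Ensembl identifier (65 of 69) and RefSeq (69 of 69; upstream windows for 64).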

Additional observations from a re-analysis of the deposited data

How the results depend on the processing

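Of the 16 histone genes called higher, 13 kept their call in each of the 17 alternatives that tested them (H2BC8 did not pass a filter at 50); the exceptions were H2AC8, H3C10 and H4C16. On the recovered reads, edgeR and DESeq2 each called 16 histone genes higher, among 1820 genes higher and 2389 lower with edgeR and 2345 and 2449 with DESeq2. Leaving out single libraries gave 14 to 16 histone genes. Over all genes the count of 2047 higher and 2191 lower became 3995 and 3918 with the P number block and 1162 and 1368 without both P14 libraries, and leaving out single libraries gave 1318 (without FOLFIRINOX P19) to 2218 higher and 1544 to 2204 lower. With no filter 1 histone gene, H2AC12, was called lower. The 2 called H2A genes became 1 with no filter, with a filter at 50 and without both P14 libraries, and 1 to 2 without single libraries. The 2 called H3 genes became 1 with a filter at 50, where the log2 ratio of the H3 sum was 1.92 in place of 1.48, and 1 to 2 without single libraries. The 3 called H4 genes became 5 with the block and 2 to 5 without single libraries. The block changed no other call among the 23 histone genes. Signs turned in 3 genes that were not called: H2AC25 without single libraries (-0.58 to 0.22); NPAT with common-total scaling (0.10), with DESeq2 (0.0016), without both P14 libraries (0.0397) and without single libraries (-0.28 to 0.22); and H3-3A with TMM (-0.0103), edgeR (-0.0072), without both P14 libraries (-0.0544) and without single libraries (-0.16 to 0.14). The cause of these shifts was not tested. Common-total scaling moved the median log2 difference of all genes to 0.13.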

Other observations

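Histone rows outside the rule did not rise with the family. The table held 107 other rows with histone symbols, most of them pseudogenes and antisense RNAs, of which 75 had no read and 10 passed the filter. None of the 10 was called higher by limma and 1 was called lower, while 11.4% of all genes tested were called higher. The row that fell was H2AZP3, a processed pseudogene of H2A.Z, with values of 18.5, 13.8 and 9.34 after FOLFIRINOX and 90.2, 44.6 and 46.7 with vehicle (log2 difference -2.02 ± 0.43, adjusted p = 0.00633). The largest in value, H3P6, a processed pseudogene of H3, stood at 1093 ± 281 against 1082 ± 137 (SD, n = 3; adjusted p = 0.985). H2BC6-AS1, named as antisense to H2BC6, stood at 10.7 ± 6.80 against 8.16 ± 3.04 (adjusted p = 0.898), whereas H2BC6 rose.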
